A study of Mus musculus with 8 samples.

Results

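The aryl hydrocarbon receptor gene Ahr, its dimerization partner Arnt and 6 genes that the receptor is known to control (Ahrr, Tiparp, Cyp1a1, Cyp1a2, Cyp1b1 and Aldh3a1) were examined in mouse Hepa-1 cells exposed to hexavalent chromium, Cr(VI). The 8 genes were chosen by their symbols, which were matched to the Entrez gene identifiers of the RNA-seq count table, and all 8 were among its 23403 genes. RNA was sequenced from 2 libraries of treated cells, which had received Cr(VI) at 25 µM during 90 minutes, and from 2 libraries of control cells. FAIRE-seq, which recovers DNA that is not held by crosslinked proteins and so is called open, was done on 4 libraries with 1 for each condition: the same acute treatment at 25 µM and its control, and growth over 20 passages in medium with Cr(VI) at 0.5 µM and its control. All libraries came from Hepa-1c1c7, a mouse hepatoma line, grown with serum and with no added receptor ligand named in the labels. The labels of the RNA-seq controls do not say to which of the exposures they belong, and RNA of the cells kept at 0.5 µM was not analysed here. They also do not say whether the libraries of a group came from separate cultures, so the p-values measure only the spread between these libraries, which may be technical.

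The aryl hydrocarbon receptor (AHR) is a ligand-activated transcription factor of the bHLH-PAS family that waits in the cytosol in a complex with HSP90 and p23. On binding a ligand such as dioxin or benzo[a]pyrene it enters the nucleus, pairs with ARNT and binds DNA at xenobiotic response elements (XRE), whose core reads GCGTG. The pair turns on enzymes that oxidize polycyclic compounds, foremost the cytochrome P450 enzymes of the CYP1 family, together with AHRR and TIPARP, which restrain the receptor in return. Hepa-1 cells have long been used to study this response because their Cyp1a1 is strongly inducible.

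The XRE cores beside the start sites show where the receptor could bind in these genes, and so they are given first. Promoters were taken from RefSeq on GRCm38.p6, the same build as the mm10 coordinates of the peaks, and 6 of the 8 genes had an entry, all except Ahr and Aldh3a1. Within 250 bases before to 50 bases after the start, GCGTG was found on either strand in 5 of the 6 promoters, all except that of Cyp1a2, beside 32.4% of 32851 RefSeq promoters. The longer form TNGCGTG, which contains the shorter one, was found in that window only in Ahrr, beside 5.07% of all promoters. Over 1500 bases before to 500 bases after the start, all 6 genes held GCGTG, as did 73.1% of all such windows. A match describes these letters and was not tested as a bound site.

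The numbers of cores in the wider window set the genes apart from each other. Cyp1a1 held 12 GCGTG cores, more than 99.7% of all windows, whose median was 1, and Cyp1b1 held 11, more than 99.6% of them. Tiparp held 7 and Ahrr held 6, more than 95.8% and 92.6% of windows. Cyp1a2 held 2 and Arnt held 1, numbers near that median. The longer form occurred 7 times near Cyp1a1, 2 times each near Ahrr and Cyp1b1, once near Tiparp and not near Cyp1a2 or Arnt, while 22.6% of all windows held at least 1. The 2 cores of Cyp1a2 lay on opposite strands at offsets -962 and -953. The longer forms are printed with the GCGTG core in capitals, each 5′ to 3′ on the strand that carries it, because they are the sites that separate Cyp1a1 from the others. Cyp1a1 has 2 annotated starts, at positions 57687928 and 57697613, and its window was taken at the second, so that its sites before that start lie inside the annotated gene. Offsets give the place of the first core base in the direction of the gene, counted from the start site and negative before it.
Cyp1a1, chr9:57696222-57696240, minus strand, offset -1384: gaacttgGCGTGtctaact
Cyp1a1, chr9:57696398-57696416, minus strand, offset -1208: cgggtttGCGTGcgatgct
Cyp1a1, chr9:57696545-57696563, plus strand, offset -1061: ccagctaGCGTGacagcac
Cyp1a1, chr9:57696620-57696638, minus strand, offset -986: cggagttGCGTGagaagag
Cyp1a1, chr9:57696709-57696727, minus strand, offset -897: gaggctaGCGTGcgtaagc
Cyp1a1, chr9:57696782-57696800, plus strand, offset -824: ctgtctcGCGTGgatcctt
Cyp1a1, chr9:57697113-57697131, minus strand, offset -493: caagctcGCGTGagaagcg
Cyp1b1, chr17:79715923-79715941, plus strand, offset -873: gtgccttGCGTGcgccgct
Cyp1b1, chr17:79715904-79715922, plus strand, offset -854: cccccttGCGTGcggagct
Tiparp, chr3:65528031-65528049, plus strand, offset -409: tcacatcGCGTGcccgggt
Ahrr, chr13:74292693-74292711, plus strand, offset -373: agacttaGCGTGttcctcc
Ahrr, chr13:74292347-74292365, minus strand, offset -27: gcggctcGCGTGctggggt
The 7 longer forms of Cyp1a1 all lay before the start and the one nearest to it was at offset -493.

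**Figure D1:**
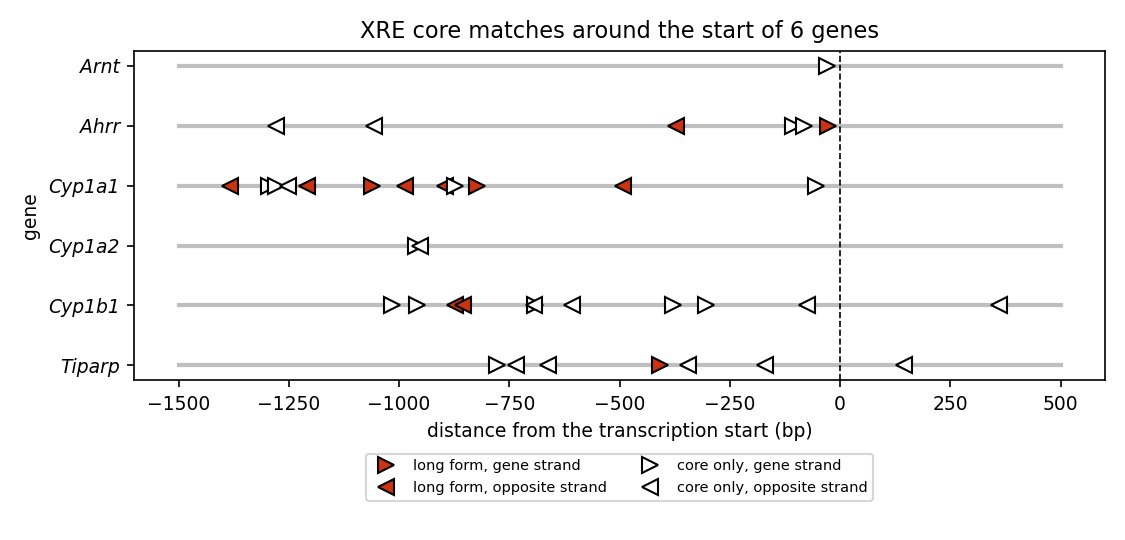
XRE cores from 1500 bases before to 500 bases after the start (dashed line) of the 6 genes with a promoter entry, by distance from the start in bases. Filled triangles are the longer form TNGCGTG, open triangles are other GCGTG cores, and a triangle pointing right is on the strand of the gene; Cyp1a1 carries 12 cores, of which 7 are of the longer form, and Arnt carries 1.

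The 4 RNA-seq libraries held between 32319676 and 37696116 counts, and their TMM factors, which correct for composition, were 1.04 and 1.04 in controls and 1.03 and 0.897 in treated cells. Across tested genes, the treated libraries differed from each other more than the controls did: 1404 genes were over 2-fold apart in the treated pair and 83 in the control pair, and Pearson's r of log2 CPM was 0.974 and 0.997. The difference between the treated libraries went with exon length (Spearman's rho 0.315 over 13561 genes, which are not independent replicates), longer genes being relatively higher in treated replicate 1. The liver markers Alb and Afp, for albumin and alpha-fetoprotein, were abundant in control cells at 926 and 150 CPM (normalized counts scaled to a common library size), Trf and Foxa2 were also present, Ttr and Hnf4a were below 2 CPM in every library, and Apoa1 had at most 9 counts and was at 0 in both controls. The 8 liver markers summed to 2201 and 2264 CPM in controls and to 5306 and 5857 CPM in treated cells, and 2 of the 6 tested, Alb (3606 CPM in treated cells) and Ttr, rose in edgeR. Of 8 markers of other liver cells, Col1a1, Krt19 and Acta2 were above 5 CPM, Pecam1 was at 0.487 CPM in controls and 2.01 CPM in treated cells, and Ptprc, Adgre1, Kdr and Epcam had at most 8 counts. These 8 summed to 292 and 296 CPM in controls and 311 and 459 CPM in treated cells, and 1 of the 4 tested, Pecam1, rose in edgeR. These 2 and 1 calls, beside 4.63% of all tested genes, fell to 0 and 0 without control replicate 1 and likewise without control replicate 2. The part of these markers in the results was not tested.

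After the acute treatment none of the 8 genes passed edgeR's test, which was run without pairing libraries by replicate number. The largest differences were a higher level of Ahr, 2.27-fold, and a lower level of Cyp1a2, 2.44-fold, with the treated libraries far apart in both. Aldh3a1 was at 0.666 times the control level, and Arnt, Cyp1a1, Cyp1b1 and Tiparp were at 0.855 to 1.19 times the control level. Ahrr was at the limit of detection in every library.

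Ahr, the receptor itself, lies at chr12:35497979-35534989 on the minus strand. It had 2382 and 2549 counts in control cells and 6566 and 3171 counts in treated cells. These correspond to 68.5 and 65.2 CPM in controls and 194 and 109 CPM in treated cells, so that both treated libraries lay above both controls while treated replicate 1 was 1.77-fold above replicate 2. The means were 66.8 ± 2.35 CPM (SD, n = 2) and 152 ± 59.8 CPM (SD, n = 2). The log2 fold change was 1.18 (SE 0.298, 95% confidence interval 0.386 to 1.98), with an adjusted p of 0.0929 by edgeR's quasi-likelihood test with Benjamini-Hochberg adjustment (unadjusted p = 0.0135). DESeq2 gave 1.20 with an adjusted p of 0.000896. In bulk RNA a change in the number of cells that express a gene and a change in RNA per cell cannot be told apart.

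Arnt encodes the partner with which the receptor binds DNA, and it also pairs with the hypoxia-inducible factors. It lies at chr3:95434367-95497240 on the plus strand. Its level was 51.0 and 48.1 CPM in controls and 74.4 and 41.2 CPM in treated cells. The groups overlapped, since 1 treated library was above both controls and the other below both. The log2 fold change was 0.22 (SE 0.303, interval -0.587 to 1.04, adjusted p = 0.646 in edgeR), which changed sign to -0.25 without treated replicate 1.

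The feedback genes gave no difference beyond the spread. Ahrr, the repressor that competes with the receptor for ARNT, lies at chr13:74211118-74292331 on the minus strand and had 2 and 1 counts in controls and 1 and 3 counts in treated cells. It was at or under the floor of 3 counts in every library, so no fold change is given, and a difference was not detectable at this depth. Tiparp encodes a mono-ADP-ribosyltransferase that acts on the receptor, and lies at chr3:65528447-65555518 on the plus strand. It was at 35.5 and 34.6 CPM in controls and 24.1 and 35.9 CPM in treated cells, so that the groups overlapped. Its log2 fold change was -0.22 (SE 0.222, interval -0.818 to 0.371, adjusted p = 0.532 in edgeR), and 0.045 without treated replicate 1. The antisense transcript 4931440P22Rik overlaps the start of Tiparp, and it is not stated whether strand was used in counting, so the Tiparp counts are uncertain.

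Cyp1a1, the monooxygenase most used as a readout of the receptor, lies at chr9:57687928-57703824 on the plus strand. It was at 62.8 and 66.5 CPM in controls, and at 48.9 CPM in treated replicate 1 and 106 CPM in treated replicate 2. The treated libraries were thus on either side of the controls and 2.16-fold apart, a distance larger than that of 91.9% of tested genes. The means were 64.7 ± 2.64 CPM and 77.2 ± 40.1 CPM (SD, n = 2 each). The log2 fold change was 0.26 (SE 0.383, interval -0.769 to 1.28, adjusted p = 0.679 in edgeR). It was 0.72 without treated replicate 1 and -0.41 without treated replicate 2.

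Cyp1a2, a close relative of Cyp1a1 that oxidizes aromatic amines and is typical of liver, lies at chr9:57676937-57683655 on the minus strand. Its start is 14.0 kb from the Cyp1a1 start used for the sites above, and the genes point away from each other. Cyp1a2 had 746 and 810 counts in controls and 215 and 318 counts in treated cells. Its level was 21.5 and 20.7 CPM in controls and 6.35 and 11.0 CPM in treated cells, with both treated libraries below both controls. The log2 fold change was -1.28 (SE 0.301, interval -2.09 to -0.481), with an adjusted p of 0.0846 in edgeR (unadjusted p = 0.0103) and of 0.00245 in DESeq2.

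Cyp1b1, which oxidizes polycyclic hydrocarbons and estrogens, lies at chr17:79706940-79715061 on the minus strand. It was at 6.50 and 6.47 CPM in controls and 6.21 and 4.87 CPM in treated cells. Both treated values were below both controls, although that of treated replicate 1 was close to them. The log2 fold change was -0.23 (SE 0.21, interval -0.788 to 0.335, adjusted p = 0.503 in edgeR). Aldh3a1, an aldehyde dehydrogenase that oxidizes aromatic and lipid aldehydes, lies at chr11:61208510-61218418 on the plus strand. It was at 50.4 and 50.7 CPM in controls and 28.5 and 38.8 CPM in treated cells, with no overlap. Its log2 fold change was -0.59 (SE 0.184, interval -1.08 to -0.0942), with an adjusted p of 0.128 in edgeR and of 0.113 in DESeq2 (unadjusted p = 0.0289 in edgeR).

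**Figure D2:**
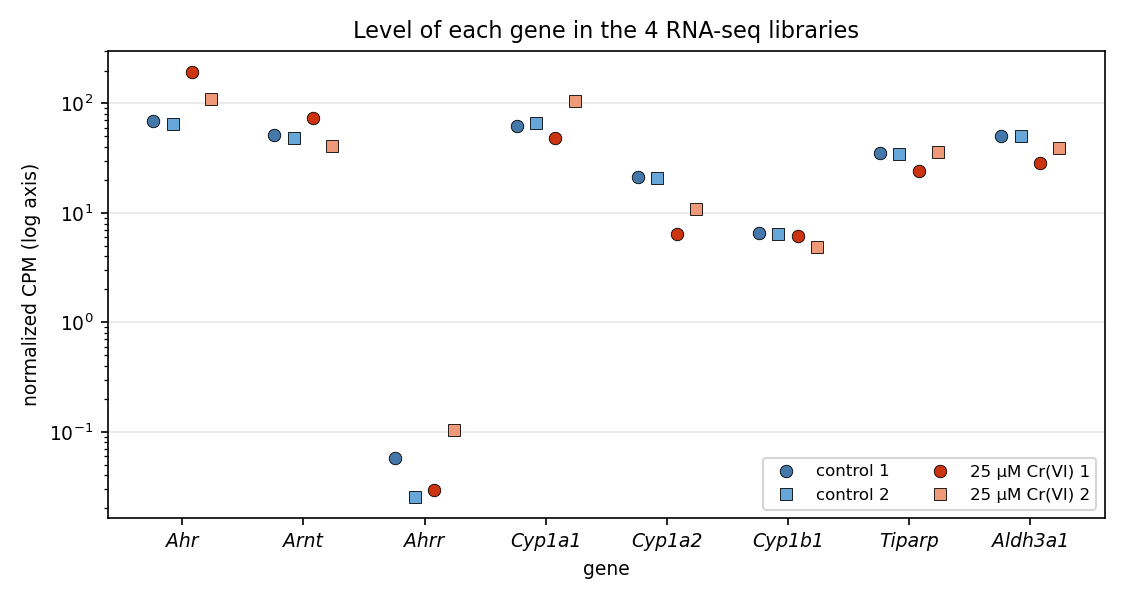
Level of the 8 genes in TMM-normalized CPM on a log axis, with 1 point for each of the 4 RNA-seq libraries (blue, control; red, 25 µM Cr(VI)). Both treated points lie above the controls for Ahr and below them for Cyp1a2 and Aldh3a1, and those of Cyp1a1 stand at 48.9 and 106 CPM on either side of the controls.

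Of the 8 genes, 7 were tested, all except Ahrr, and 0 of them passed an adjusted p of 0.05 in edgeR, beside 4.63% of all 13619 tested genes. At an unadjusted p under 0.05 in edgeR, 3 of the 7 (Ahr, Cyp1a2 and Aldh3a1) passed, beside 30.7% of all genes. DESeq2 called 2 of the 7, Ahr and Cyp1a2, beside 15.2% of all genes. For 4 of the 7, neither treated value fell within the range of the controls and both were on the same side, 1 higher and 3 lower, beside 66.3% of all genes. With 7 genes tested, none of these shares is read as a result about the group. The median log2 fold change was -0.22 over the 7 genes and -0.0047 over all tested genes.

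**Figure D3:**
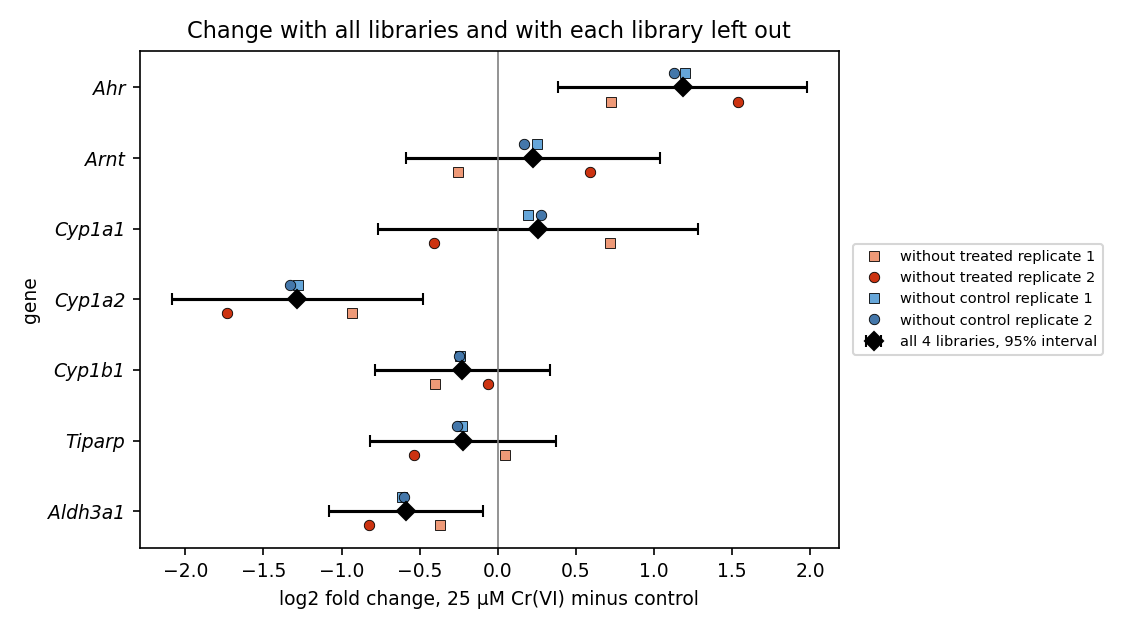
Log2 fold change of the 7 tested genes at 25 µM Cr(VI), with diamonds for the value from edgeR. Bars are the 95% confidence interval derived from edgeR's F statistic, and coloured points are the values with each library in turn left out. The intervals of Ahr, Cyp1a2 and Aldh3a1 do not include 0, and the values of Arnt, Cyp1a1 and Tiparp change sign when 1 treated library is left out.

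The treated libraries departed from each other by gene. Ahr, Arnt and Cyp1b1 were higher in treated replicate 1, by 1.77, 1.80 and 1.27-fold, and these are the 3 genes of the 7 with the longest exons (5494, 4370 and 5161 bases). Cyp1a1, Cyp1a2, Tiparp and Aldh3a1, with 2787, 1892, 4154 and 1732 bases, were higher in treated replicate 2 by 2.16, 1.72, 1.48 and 1.36-fold. Across 13561 tested genes, which are not independent replicates, Spearman's rho between exon length and the log2 fold change was -0.133. The part of exon length in the differences between treated and control cells was not tested for these genes.

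Ratios between the genes within a library do not depend on normalization, but a difference that goes with exon length need not cancel in them. They were computed after the levels had been seen and carry no test. The ratio of Ahr counts to Arnt counts was 1.34 and 1.36 in controls and 2.61 and 2.65 in treated cells, a 1.95-fold difference that was nearly equal in both treated libraries although each gene alone was 1.77 and 1.80-fold apart between them. Of the tested genes, 43.6% had a ratio to Arnt that did not overlap between the groups, and 1.15% had one that differed less between the treated libraries than that of Ahr. Ahr to Arnt was singled out from the 21 pairs after the levels had been seen, so the share of 1.15% is not read as evidence. The ratio of Cyp1a1 to Cyp1a2 was 2.93 and 3.21 in controls and 7.69 and 9.63 in treated cells, 2.82-fold higher on average. That of Cyp1a2 to Tiparp was 0.605 and 0.599 in controls and 0.263 and 0.306 in treated cells. Of the 21 pairs, 15 did not overlap between the groups and 6 did. The pairs share their genes and so are not independent. The share over pairs of all tested genes was not computed, and the count is not read as a result.

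**Figure D4:**
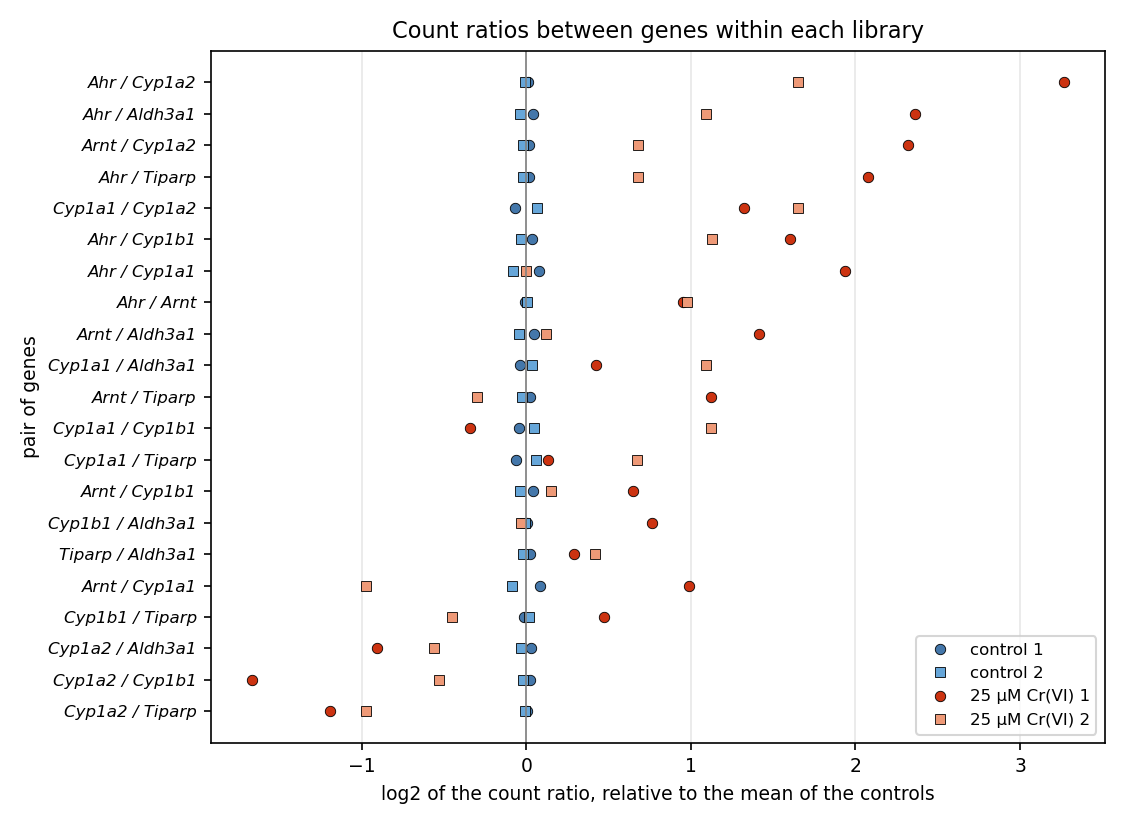
Log2 of the count ratio of each of the 21 pairs of tested genes, relative to the mean ratio of the controls, with 1 point for each library (blue, control; red, 25 µM Cr(VI)) and pairs sorted by the ratio of treated to control means. The control points lie close to 0 in every pair, and the treated points of Ahr to Arnt nearly coincide, at 1.95 times the control mean.

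Per kb of exon the levels can be compared roughly between genes. The length was that of all exons of a gene's curated RefSeq transcripts, while the annotation used for counting is not known. The difference between the treated libraries that went with exon length also enters the treated values. In control cells Aldh3a1 was highest at 29.2 ± 0.109 CPM per kb (SD, n = 2), followed by Cyp1a1 at 23.2 ± 0.946, Ahr at 12.2 ± 0.427, Arnt at 11.3 ± 0.471 and Cyp1a2 at 11.1 ± 0.277. Arnt and Cyp1a2 differed by less than their spread. Tiparp stood at 8.43 ± 0.151, Cyp1b1 at 1.26 ± 0.00406 and Ahrr at 0.00874 CPM per kb. In treated cells Cyp1a1 (27.7 ± 14.4) and Ahr (27.6 ± 10.9) were highest but did not differ beyond their spread from Aldh3a1 (16.5 and 22.4 in the 2 libraries), which overlapped Arnt (13.2 ± 5.37). Below them Tiparp was at 7.22 ± 1.99, Cyp1a2 at 4.58 ± 1.73 and Cyp1b1 at 1.07 ± 0.184 CPM per kb. The 3 tested genes with the pattern most like that of Cyp1a1, by root mean square difference of centred log2 CPM over 4 libraries, were T2 (0.0351), Mif (0.0414) and Ier3 (0.0436). Mif and Ier3 were at 82.2 and 112 CPM in treated replicate 1 and at 174 and 256 CPM in treated replicate 2. T2 was low, at 0.946 and 2.07 CPM in treated replicates 1 and 2. That they share the order of Cyp1a1 follows from how they were chosen.

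Other genes of the pathway were read from 7 lists with 81 genes in all. Of these 68 were tested and 2 passed the adjusted p in edgeR, both higher in treated cells. Relb, an NF-kappaB subunit that can pair with the receptor, was at 21.5 and 22.2 CPM in controls and 40.4 and 44.0 CPM in treated cells (log2 fold change 0.95, SE 0.123, adjusted p = 0.0391). Por, the reductase that supplies electrons to the P450 enzymes, was at 131 and 136 CPM in controls and 277 and 381 CPM in treated cells (log2 fold change 1.30, SE 0.193, adjusted p = 0.0448 in edgeR). Neither call held without control replicate 1 (adjusted p of 0.367 and 0.160 for Relb and Por in edgeR) or without control replicate 2 (0.317 and 0.134), although the log2 fold changes were then 0.90 and 0.95 for Relb and 1.25 and 1.31 for Por. That of Relb was also lost with library size alone (adjusted p = 0.0574 in edgeR, log2 fold change 0.83). In that setting the coregulator Dnmt1, lower in treated cells, was called in its place (adjusted p = 0.048 in edgeR, log2 fold change -0.73).

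The remaining genes of those lists did not pass in edgeR with all libraries, TMM factors and no pairing by replicate number. The DESeq2 calls given below stand beside 15.2% of all tested genes. Among 16 other targets of the receptor, 14 were tested, 0 were called in edgeR and 2 in DESeq2, with a median log2 fold change of 0.18. The most abundant of them was Ugdh, which makes the UDP-glucuronate for conjugation (512 and 666 CPM on average in control and treated cells). Next was Nfe2l2, the regulator of the antioxidant response (391 and 594 CPM, adjusted p = 0.0763 in edgeR and 0.012 in DESeq2). Ugt1a6a and Ugt1a6b, which share exons, had close counts in every library. These were 2535 and 2709 in controls and 2831 and 3395 in treated cells for Ugt1a6a. For Ugt1a6b they were 2435 and 2619 in controls and 2752 and 3315 in treated cells. The 2 genes may rest largely on the same reads, and both enter the 14 tested and their median. The 6 genes of the cytosolic complex were all tested and 0 called in edgeR (1 in DESeq2), with a median of 0.30. Their most abundant members were the chaperones Hsp90ab1 (2301 and 3629 CPM) and Hsp90aa1 (754 and 968 CPM).

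Of 13 further bHLH-PAS factors 8 were tested and 0 called in edgeR (1 in DESeq2), with a median log2 fold change of -0.20. The hypoxia factor Hif1a was at 465 and 412 CPM and the circadian factor Clock at 43.2 and 24.7 CPM in control and treated cells. Clock was the 1 factor called in DESeq2 (adjusted p = 0.0225). Of 14 coregulators, all tested, 1 was called in edgeR, Relb, and the median was 0.18. DESeq2 called 2, Relb and Dnmt1 (adjusted p = 0.000394 and 0.0194). The most abundant were the DNA methyltransferase Dnmt1 (338 and 220 CPM, adjusted p = 0.0623 in edgeR) and the coactivator Ncoa3 (177 and 215 CPM). Of 13 genes controlled by the hypoxia factors, which share ARNT with the receptor, 12 were tested and 0 called in edgeR (1 in DESeq2), with a median of -0.25. The glycolytic genes Ldha (1758 and 1098 CPM) and Aldoa (1421 and 1223 CPM) were the most abundant.

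Of 11 enzymes of tryptophan and kynurenine metabolism, which can make ligands of the receptor, 6 were tested and 0 called in edgeR (1 in DESeq2), with a median log2 fold change of -0.38. Kyat3 was at 39.9 and 23.8 CPM and Afmid at 16.4 and 17.1 CPM in control and treated cells. Kyat3 was the 1 enzyme called in DESeq2 (adjusted p = 0.012). Of 8 genes of P450 support and heme metabolism, all tested, 1 was called in edgeR and in DESeq2, Por, and the median was 0.36. Cyb5r3, the cytochrome b5 reductase, was at 205 and 262 CPM. Over all 7 lists 2 of 68 tested genes were called in edgeR, beside the 4.63% of all genes.

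**Figure D5:**
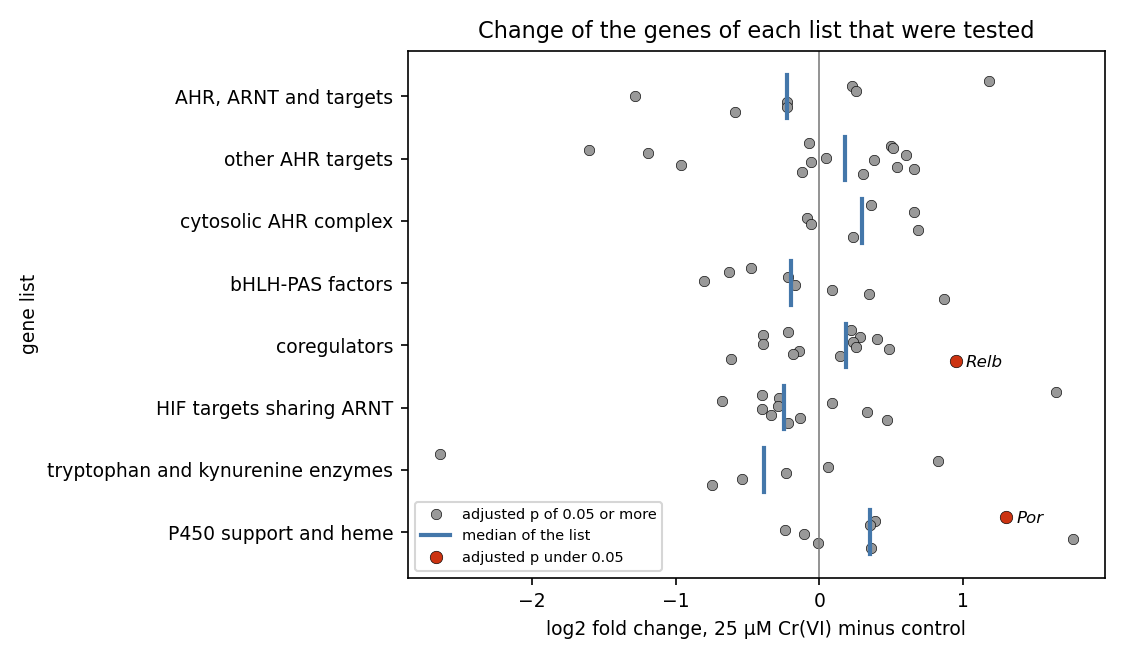
Log2 fold change at 25 µM Cr(VI) of the tested genes of each list, with 1 point for each gene and a blue line at the median of the list. The first line holds the 7 tested genes of the receptor group, and Relb and Por (red) are the 2 genes past the adjusted p of 0.05 in edgeR.

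No peak of either FAIRE list was found at any of the genes. The list of peaks open after 25 µM Cr(VI) held 2945 peaks and that after chronic treatment at 0.5 µM held 860. Both lists hold only regions called as more open in treated than in control cells. Regions equally open in both cannot appear in them, nor can those that the paper reports as open in control and closed after treatment. A lack of peaks therefore does not show that the chromatin at these genes was closed or unchanged. Within 10 kb of the gene, 0 of the 8 had a peak in the 25 µM list, beside 9.24% of 23281 annotated genes, and 0 of the 8 had one in the 0.5 µM list, beside 2.97%. Within 100 kb, 3 of the 8 (Cyp1a1, Cyp1a2 and Cyp1b1) had a peak in the 25 µM list, beside 32.2% of genes, and 0 had one in the 0.5 µM list, beside 10.7%. Each list compares 1 treated library with 1 control library, so that a peak or its lack has no replicate check, and the lists give no read counts from which a peak's precision could be computed.

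The nearest peaks of the 25 µM list to these genes lay outside the promoters. One peak of 56 bases at chr9:57660706-57660761 was nearest to both Cyp1a2, 16.2 kb past its end, and Cyp1a1, 27.2 kb before its first annotated start and 36.9 kb before the second, and it was 7.1 kb from the start of Csk. It overlapped no gene and its MACS score was 58.4, where the lowest score in the list was 50.0 and the median 57.2. The other lay at chr17:79757954-79758060, 42.9 kb before Cyp1b1, with a width of 107 bases, a score of 55.0 and no gene overlapping it. Both are printed from the plus strand, with a GCGTG in capitals where there is one, because a count of all peaks within 100 kb of the 8 genes found these 2 in the 25 µM list and 0 in the 0.5 µM list.
Peak between Cyp1a2 and Csk: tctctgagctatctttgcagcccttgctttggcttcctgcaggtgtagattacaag
Peak before Cyp1b1: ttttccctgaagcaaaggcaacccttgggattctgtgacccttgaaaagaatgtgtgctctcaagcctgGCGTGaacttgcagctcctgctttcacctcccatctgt
The peak before Cyp1b1 held 1 GCGTG core and no TNGCGTG, and the one near Cyp1a2 held neither. At a score of at least 60, 0 of the 8 genes had a peak of the 25 µM list within 100 kb.

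For the other genes the nearest peak of the 25 µM list was far away. The distance was 299 kb for Ahrr, 313.4 kb for Ahr, 398 kb for Aldh3a1, 583.9 kb for Arnt and 1182.8 kb for Tiparp. In the 0.5 µM list the nearest peak to Cyp1b1 was 180.8 kb away, at the start of Atl2, and those nearest to Ahrr and Aldh3a1 were at 347 and 568 kb. It was 603 kb from Cyp1a2 and 614 kb from Cyp1a1, at Sin3a in both cases, 887.5 kb from Arnt, 2580.3 kb from Ahr and 6388.4 kb from Tiparp.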

How the data were processed

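RNA was measured in 4 libraries and open chromatin in 4. The deposited RNA-seq values are read counts per Entrez gene, which the authors made from reads aligned to mm10 with TopHat; they were used without change. The counting tool, the annotation and the use of strand are not given in the sources used here. The deposited peak score is 10 times the negative log10 of the p-value that the authors' peak caller MACS gave to 1 treated library against 1 control library after alignment with BWA. CASAVA 1.8, bcl2fastq and DESeq are also named in the submitters' processing notes.

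Of 23403 gene identifiers, 23305 matched a RefSeq symbol (GRCm38.p6). Genes passing filterByExpr, 13619 in all, were fitted together with edgeR's quasi-likelihood test (TMM, two-sided, no block, Benjamini-Hochberg adjustment, threshold 0.05); CPM are TMM-normalized, and the coefficient of biological variation was 0.193. Control replicates differed beyond sampling noise (reduced chi-square 2.12) and were kept as 2. The edgeR fit was tested on simulated counts with the same spread in both groups. That run does not cover a treated pair that differs more than the control pair, as here. A peak counted for a gene when it overlapped the gene or 10 kb to either side. No column of per-sample values was left unused (0).

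The genes and lists were chosen with earlier results of these data known. Named are the 8 genes, list members past the threshold, the 2 most abundant of each list, the 3 genes most like Cyp1a1 and the nearest peaks; marker genes are named as a check of the cells, and others with a remark. Some genes of the lists are not reported here by name. Alternatives were a replicate block, library size only, upper-quartile normalization, no filter on low counts, DESeq2, each library left out, thresholds of 0.01 and 0.1, peak windows of 1, 50 and 100 kb, peak centres, scores of at least 60, TNGCGTG and the wider promoter window. The software was Python 3.11.15 with pandas 2.3.3, numpy 2.4.6 and matplotlib 3.10.9, and R 4.3.3 with DESeq2 1.42.0 and edgeR 4.0.16.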

Additional observations from a re-analysis of the deposited data

How the results depend on the processing

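With 2 libraries a group, 1 library decided much. Without 1 library in turn, where the lone one is assumed to vary like the other group, the log2 fold changes in edgeR ranged from 0.72 to 1.54 for Ahr, -0.25 to 0.59 for Arnt, -0.41 to 0.72 for Cyp1a1, -1.73 to -0.93 for Cyp1a2, -0.40 to -0.065 for Cyp1b1, -0.54 to 0.045 for Tiparp and -0.83 to -0.37 for Aldh3a1. Arnt and Tiparp changed sign without treated replicate 1 and Cyp1a1 without treated replicate 2. Calls ranged from 0 to 6 of the 7 tested genes and from 287 to 10995 of all genes: 6 and 6 members without treated replicate 1 or 2 (10995 and 9333 genes), where only the close controls set the spread, and 0 without a control (294 and 287 genes). In the lists they ranged from 0 to 13 for other targets, 0 to 6 for the cytosolic complex, 0 to 5 for bHLH-PAS factors, 0 to 11 for coregulators, 1 to 11 for genes of the hypoxia factors (0 with all libraries), 0 to 5 for tryptophan enzymes and 1 to 8 for P450 support. The genes behind the hypoxia and P450 support calls without a control were Vegfa and Hmox1. Without control replicates 1 and 2 in turn, their log2 fold changes were 1.62 and 1.62 for Vegfa and 1.70 and 1.78 for Hmox1. Vegfa was at 42.8 and 42.5 CPM in controls and at 60.1 and 207 CPM in treated replicates 1 and 2. Hmox1 was at 52.1 and 55.2 CPM in controls and at 49.9 and 316 CPM in treated replicates 1 and 2, so its groups overlapped. The labels do not say whether libraries with the same replicate number belong together. The weak correlation of same-number deviations (0.0909) does not settle it. With a replicate block, Ahr (1.13, adjusted p = 3.97e-06 in edgeR), Cyp1a2 (-1.33, 0.000175) and Aldh3a1 (-0.60, 0.039) were called, 3 members and 2969 genes beside 631, and 2 other targets, 1 of the cytosolic complex, 1 bHLH-PAS factor, 2 coregulators, 1 hypoxia gene, 2 tryptophan enzymes and 2 P450 support genes. DESeq2 called 2 members (Ahr 1.20 and Cyp1a2 -1.26), 2073 genes, 2 other targets, 1 of the cytosolic complex, 1 bHLH-PAS factor, 2 coregulators, 1 hypoxia gene and 1 tryptophan enzyme. The threshold of 0.1 gave 2 members and 2212 genes, and 0.01 gave 0 genes. Library size alone moved the median of all genes by -0.11 (log2) and gave 141 higher and 315 lower genes, beside 243 and 388; with it, upper-quartile normalization or no filter, no member changed sign or was called. Peak windows of 50 and 100 kb gave 3 genes each in the 25 µM list, and TNGCGTG 1 promoter beside 5 for GCGTG. Other causes of these shifts were not tested.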
